A study of Mus musculus with 16 samples.

Results

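The splicing factors and hnRNP proteins described here are the 50 genes of the count table whose symbols begin with Srsf and a digit, Hnrnp, Sf3a or Sf3b and a digit, or Snrp, out of 11710 genes in all. They fall into 10 SR proteins (Srsf), 20 hnRNPs (Hnrnp), 8 subunits of splicing factor SF3 (Sf3a and Sf3b) and 12 snRNP proteins (Snrp). All 50 passed the filter on low counts, as did 11709 of the 11710 genes, so no member was lost to it. Introns are removed from pre-mRNA by the spliceosome, which is built on small nuclear RNAs wrapped in a ring of Sm proteins and carries the SF3 complex to the branch point of the intron. SR proteins bind exons and mostly favour their inclusion, while hnRNPs coat nascent RNA and often oppose it, and the balance between them helps to set which exons are kept. Adult skeletal muscle is known for a large programme of muscle-specific exons in its contractile genes.

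RNA was sequenced from rotator cuff muscle of mice of 2 inbred strains, C57BL/6J (BL6) and MRL/MpJ (MRL), the second known for unusual healing of some wounds. In each strain 4 samples came from muscle after a tenectomy, the removal of the tendon, together with denervation (operated), and 4 from unoperated controls. The 4 groups carried no other labelled treatment or transgene, the labels used here give neither the age of the mice nor the time after surgery, and the sample labels name the supraspinatus where the series design names the infraspinatus. Nothing in the labels says that replicates came from separate animals, so p-values measure the spread between these samples, which may be partly technical.

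Total counts ran from 24323862 to 43552964 per sample, where 3 counts correspond to 0.0689 to 0.123 counts per 1000000 counts of a library (CPM), a limit that covers counting error only. The fibre genes Acta1, Ckm, Myh4, Myh1, Myh2, Tnnt3, Ttn and Des were all in the table, with a summed level of 47240 to 152050 CPM, so the muscle label held in every sample. A set of 3 libraries that stood apart was left out, in part or whole, of some fits below. Replicate 4 of operated BL6 held 8003 CPM of 7 fibroblast and matrix genes, against 1102 to 2037 CPM in the other operated BL6 samples, and 528 CPM of 8 macrophage and leukocyte genes against 83.4 to 157. Replicate 1 of unoperated MRL held 312 CPM of the same macrophage and leukocyte genes against 75.5 to 97.5. Replicate 4 of operated MRL had 11.8% of its counts in mitochondrially encoded genes against 20.1% to 24.9%, and 295 CPM of 5 endothelial genes against 568 to 666. Not in this set was replicate 1 of unoperated BL6, with 142 CPM of the macrophage and leukocyte genes against 38.3 to 57.4. It also held 1586 CPM of the matrix genes against 664 to 942. Operated MRL replicates 3 and 4 held 3983 and 3951 CPM of the matrix genes, and replicates 1 and 2 held 1983 and 1865.

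The paralogues Snrpn and Snrpb show how alike members of the set can be, which bears on how their reads are told apart. Snrpb codes for SmB and its variant, a ring protein of all Sm-type snRNPs, and Snrpn for SmN, its close relative from an imprinted locus. The first 90 bases of their coding sequences (GENCODE M21 transcripts, GRCm38) are shown with the 13 bases that differ in capitals.
Snrpn: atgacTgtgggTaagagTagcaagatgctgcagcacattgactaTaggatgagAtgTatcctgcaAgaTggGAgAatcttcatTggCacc
Snrpb: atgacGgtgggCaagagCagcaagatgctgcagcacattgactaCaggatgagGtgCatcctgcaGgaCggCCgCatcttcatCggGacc
Over the whole aligned coding sequence 80.5% of bases were identical, and the longest identical run was 32 bases. The other pair compared below, Hnrnpll and Hnrnpl, was 64.5% identical, with a longest run of 20 bases.

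Promoters of the set were searched for 6 short motifs. RefSeq promoter windows on GRCm38.p6, from 250 bases before to 50 bases after a start, were matched for 45 of the 50 members, with 62 windows. The ETS-type motif CCGGAAG, on either strand, was in 33.9% of the 62 member windows, in 17.1% of 11768 windows of genes in the table and in 8.86% of all 32851 windows. The CCAAT box, searched as CCAAT, was in 45.2%, 37.0% and 37.4% of the same windows, and TATAAA in 11.3%, 7.46% and 13.6%. The NRF1-type motif GCATGCGC was in 4.84% of member windows and 5.08% of table windows, the CRE-type TGACGTCA in 3.23% and 2.94%, and the E2F-type TTTGGCGC in 0 of 62 member windows and 0.892% of table windows. A match is a run of letters, not a shown binding site, and windows of genes with several starts overlap. The 150 bases upstream of the annotated start are printed for 3 members described below that have an ETS-type match there outside annotated exons, with the match in capitals: Sf3b2 at chr19:5295456-5295605 (minus strand), Sf3b6 at chr12:4817394-4817543 (plus strand) and Srsf5 at chr12:80945349-80945498 (plus strand). Their values with surgery are given below, and a link between any motif and those values was not tested.
Sf3b2: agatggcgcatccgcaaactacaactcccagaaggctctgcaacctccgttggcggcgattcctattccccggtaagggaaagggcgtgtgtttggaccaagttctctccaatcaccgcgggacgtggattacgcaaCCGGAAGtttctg
Sf3b6: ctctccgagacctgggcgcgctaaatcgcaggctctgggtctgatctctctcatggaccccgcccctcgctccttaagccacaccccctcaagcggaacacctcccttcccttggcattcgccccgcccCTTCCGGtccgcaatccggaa
Srsf5: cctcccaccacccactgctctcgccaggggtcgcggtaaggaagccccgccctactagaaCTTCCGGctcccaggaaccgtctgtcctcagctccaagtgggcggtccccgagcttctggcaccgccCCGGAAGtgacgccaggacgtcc

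After surgery in BL6, mRNAs of 5 of the 7 Sm ring proteins, of 6 of 8 SF3 subunits and of 5 of 10 SR proteins were higher, while Snrpn, Hnrnph2, Hnrnpa2b1, Hnrnpr, Hnrnpul1 and Srsf5 were lower. In edgeR's quasi-likelihood test, with Benjamini-Hochberg adjustment over the 11709 tested genes and a gene called at an adjusted p under 0.05, 31 of the 50 members were called, 25 higher and 6 lower. Over all genes 67.9% were called in this comparison, 35.1% higher and 32.8% lower, so the 62% of members called was near the background, and the 50% called higher lay above it. The median log2 fold change (operated over unoperated) of the 50 members was 0.28, against 0.04 for all genes. By family, 5 SR proteins rose and 1 fell of 10, 7 hnRNPs rose and 4 fell of 20, all 6 called SF3 subunits of 8 rose, and 7 snRNP proteins rose and 1 fell of 12. Scaling by total counts alone raised the median of all genes by 0.138 and gave 29 members higher and 3 lower. In that setting 63% of all genes were called, 4443 higher and 2932 lower.

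In MRL, Sm ring and SR protein mRNAs were again among those that were higher, and Snrpn, Hnrnph2, Hnrnpul1 and Srsf2 were lower. There 22 of the 50 members were called, 18 higher and 4 lower, against a background of 45% called, 22.3% higher and 22.7% lower. Again the share of members called, 44%, was near the background, and the 36% called higher lay above it. The median log2 fold change of the members was 0.15, against 0.01 for all genes. The called members were 7 SR proteins higher and 1 lower, 5 hnRNPs higher and 2 lower, 1 SF3 subunit higher, and 5 snRNP proteins higher and 1 lower. The count moved with single libraries, and the share of all genes called moved with it. It was 14 without replicate 2 or without replicate 3 of unoperated MRL, 12 without replicate 1 and 14 without replicate 3 of operated MRL, and 25 without replicate 4 of operated MRL, with 33.2%, 33.7%, 34.1%, 29.8% and 52.5% of all genes called in that order. With total counts alone it was 16 higher and 1 lower, with 33.5% of all genes called (2034 higher and 1891 lower).

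A total of 18 of the 50 members were called in both strains, all in the same direction, 15 higher and 3 lower. Over all 11709 genes 4783 were called in both, 4774 of them in the same direction (2328 higher and 2446 lower). The 15 were Snrpg, Snrpe, Snrpf, Snrpd1, Snrpb2, Sf3b6, Srsf9, Srsf3, Srsf4, Srsf7, Srsf6, Hnrnpa0, Hnrnpl, Hnrnpk and Hnrnpc, and the 3 were Snrpn, Hnrnph2 and Hnrnpul1. In each of the 18 the change was of greater size in BL6, as it was in 3988 of the 4783 genes called in both strains. A further 13 members were called in BL6 alone and 4 (Srsf2, Srsf10, Srsf11 and Hnrnph3) in MRL alone, which does not show that the strains differ in them, and 15 were called in neither. Over all genes the numbers were 3167 in BL6 alone, 489 in MRL alone and 3270 in neither. Sample values of the operated and unoperated groups did not overlap for 28 members in BL6 (56.8% of all genes) and for 15 in MRL (33.7% of all genes). Between the strains they did not overlap for 12 members unoperated (25.1% of all genes) and 8 operated (13.6%). The authors' deposited table, at a false discovery rate under 0.05, called 30 members for surgery in BL6 (64.9% of all genes), 21 for surgery in MRL (56.4%), and 4 each for strain unoperated (9.86%) and operated (11.9%). Of these, 29, 20, 4 and 4 were called here too, with the same direction in the authors' deposited table.

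**Figure D1:**
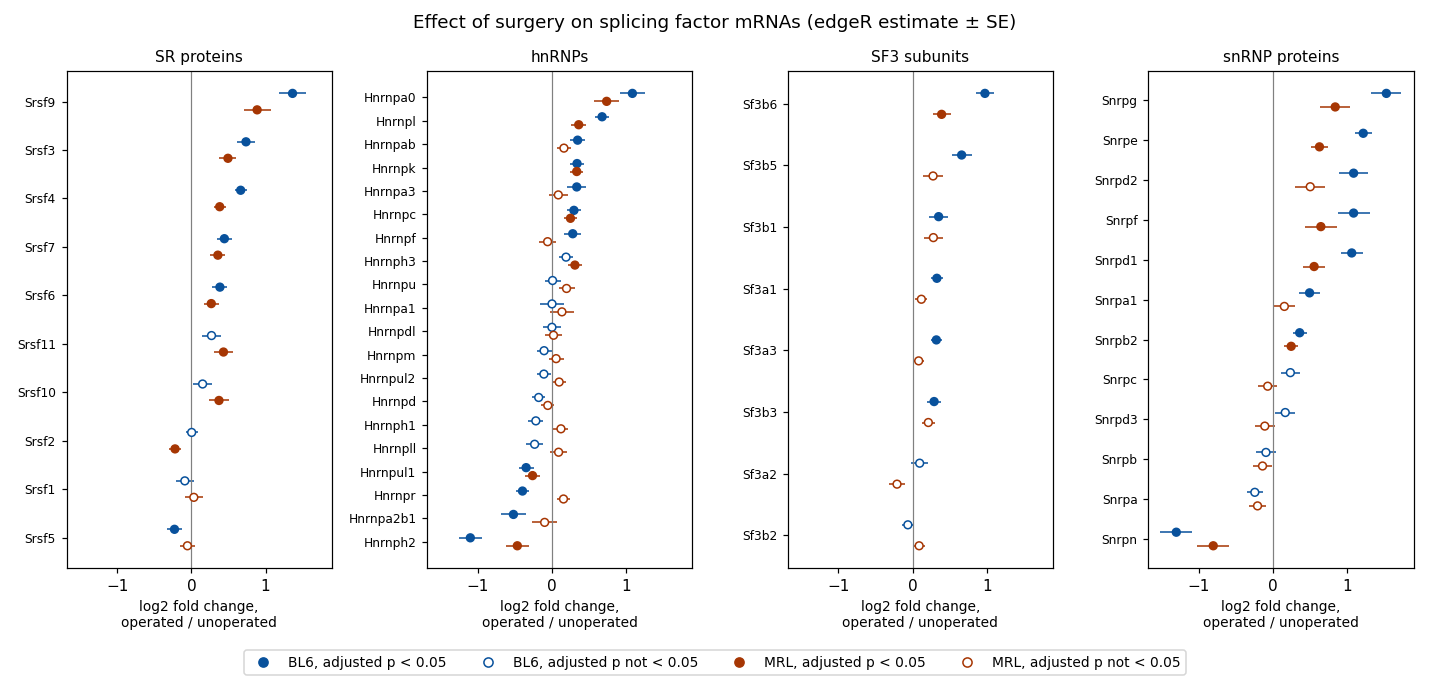
Log2 fold change of operated over unoperated muscle for each of the 50 members, by family, with BL6 in blue and MRL in orange; bars are the SE of the edgeR estimate, filled points have an adjusted p under 0.05 and open points do not. The Sm genes Snrpg, Snrpe, Snrpd2, Snrpf and Snrpd1 lie between 1.06 and 1.52 in BL6, and Snrpn and Hnrnph2 lie farthest to the left in both strains.

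Markers of several other cell types moved with surgery too. The 4 adipocyte genes in the table were all called higher in both strains, from a summed 208 to 279 CPM to 1209 to 1656 CPM in BL6 and from 262 to 369 CPM to 1086 to 1902 CPM in MRL. Fabp4 made up most of each sum. Operated MRL replicate 4 had the lowest operated sum, yet its Adipoq, Plin1 and Cidec (85.1, 50.4 and 47.9 CPM) were the highest in MRL. All 5 Schwann cell genes were called higher in BL6 (53.6 to 70.8 CPM, then 135 to 334 CPM) and 4 of 5 in MRL (38.4 to 83.4 CPM, then 63.4 to 228 CPM). Of the 5 endothelial genes 4 were called higher in BL6 (269 to 387 CPM, then 522 to 714 CPM) and 5 in MRL (208 to 292 CPM, then 295 to 666 CPM). Macrophage and leukocyte genes were called higher for 5 of 8 in BL6 (38.3 to 142 CPM, then 83.4 to 528 CPM) and 1 of 8 in MRL (75.5 to 312 CPM, then 127 to 238 CPM), and fibroblast and matrix genes for 4 of 7 in BL6 (664 to 1586 CPM, then 1102 to 8003 CPM) and 0 of 7 in MRL (1406 to 2640 CPM, then 1865 to 3983 CPM). Fibre genes fell for 4 of 8 in BL6 and 2 of 8 in MRL. Of 5 satellite and regenerating genes in the table, 1 was called higher and 2 lower in BL6, and 2 higher and 1 lower in MRL. Only 2 of 6 listed proliferation genes were in the table, with 0 called higher and 1 lower in each strain. No marker in the table was at 0 throughout a group. In bulk muscle, fewer cells of a type and less RNA per cell cannot be told apart, and the part of these markers in the members' changes was not tested. Without replicate 4 of operated BL6 and replicate 1 of unoperated MRL, 33 members were called in BL6 (64.2% of all genes) and 22 in MRL (55.0% of all genes). With replicate 4 of operated MRL left out as well, 33 and 25 were (67.6% and 62.4% of all genes). Both of these alternatives were chosen after seeing the data.

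The Sm ring of the spliceosomal snRNPs is made of SmB, SmD1, SmD2, SmD3, SmE, SmF and SmG. Snrpg, which codes for SmG, was counted at 4.03, 4.0, 2.64 and 3.33 CPM in unoperated BL6 (replicates 1 to 4) and at 8.40, 9.06, 11.1 and 11.7 CPM in operated BL6. In MRL it was at 5.84, 4.93, 4.10 and 3.82 CPM unoperated and at 8.97, 8.32, 10.4 and 5.74 CPM operated. The BL6 groups did not overlap, and in MRL the operated replicate 4 lay just under the highest unoperated sample. The log2 fold change was 1.52 (SE 0.20, adjusted p = 3.04e-05 in edgeR's test) in BL6 and 0.84 (SE 0.20, adjusted p = 0.00526) in MRL.

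Snrpe, which codes for SmE, had the lowest adjusted p of the set in both strains. Its BL6 levels were 13.8, 14.6, 11.5 and 12 CPM in unoperated and 27.2, 31.9, 31.3 and 29.9 CPM in operated samples. Its MRL levels were 16.4, 14.9, 13.4 and 17 CPM and 24.8, 26.3, 25.2 and 19.0 CPM. Neither strain's groups overlapped, and the lowest operated MRL value was again that of replicate 4. The rise was 1.21 (SE 0.12, adjusted p = 7.85e-06 in edgeR's test) in BL6 and 0.62 (SE 0.12, adjusted p = 0.00166) in MRL. A copy of the Snrpe transcript with 98.9% identity lies elsewhere in the genome outside the genes of the table, so part of its reads may have been lost or shared in counting.

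Snrpf, which codes for SmF, was the least counted member of the set. It held 2.37, 2.58, 1.98 and 1.89 CPM in unoperated and 4.04, 5.35, 4.55 and 4.81 CPM in operated BL6. It held 3.21, 1.89, 2.29 and 2.49 CPM in unoperated and 4.75, 3.82, 4.37 and 2.53 CPM in operated MRL. Separation was complete in BL6 and not in MRL, where operated replicate 4 fell inside the unoperated range. On the log2 scale the rise was 1.08 (SE 0.22, adjusted p = 0.00051 in edgeR's test) in BL6 and 0.64 (SE 0.22, adjusted p = 0.0252) in MRL. The MRL call was lost without replicate 2, 3 or 4 of the unoperated or replicate 1 or 3 of the operated samples, at adjusted p of 0.0826, 0.0615, 0.0515, 0.0832 and 0.074.

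Snrpd1 and Snrpd2, which code for SmD1 and SmD2, rose in BL6 by 1.06 (SE 0.15) and 1.08 (SE 0.20) on the log2 scale. In MRL the value for Snrpd1 was 0.55 (SE 0.15, adjusted p = 0.0088 in edgeR's test). For Snrpd2 it was 0.50 (SE 0.20, adjusted p = 0.0521), with 32.6, 30.8 and 31.8 CPM in 3 operated MRL samples and 15.5 CPM in replicate 4, below every unoperated sample (16.3 to 24 CPM). The other ring genes were not called in either strain. Snrpd3, for SmD3, had a log2 fold change of 0.16 in BL6 and -0.11 in MRL (adjusted p = 0.302 and 0.508).

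Snrpb, for SmB, stood at 108, 132, 131 and 123 CPM in unoperated and 104, 151, 106 and 101 CPM in operated BL6. In MRL it stood at 120, 115, 102 and 117 CPM and at 89.0, 105, 109 and 107 CPM. The groups overlapped in both strains, with operated BL6 replicate 2 above all other samples. The log2 fold change was -0.10 (SE 0.13, adjusted p = 0.512 in edgeR's test) in BL6 and -0.14 (SE 0.13, adjusted p = 0.369) in MRL. The BL6 value turned to 0.02 when libraries were scaled by total counts alone, and without operated replicate 2 it was -0.25 and called (adjusted p = 0.0427).

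Snrpn (ENSMUSG00000102252; chromosome 7, 59982495 to 60140219, GRCm38, minus strand) moved the other way from most of its family. Unoperated BL6 samples held 59.1, 55.9, 56.6 and 57.6 CPM and operated ones 21.3, 35.2, 23.9 and 12.5 CPM. Unoperated MRL samples held 43.7, 49.5, 52.7 and 54.8 CPM and operated ones 25.1, 32.6, 24.5 and 32.4 CPM. The groups did not overlap in either strain, and the lowest value was in replicate 4 of operated BL6, the library with the high matrix and macrophage levels. On the log2 scale Snrpn fell by 1.31 in the BL6 comparison (SE 0.21, adjusted p = 0.000124 in edgeR's test) and by 0.81 in MRL (SE 0.21, adjusted p = 0.008). Per kilobase of annotated exon, its level went from 26.5 to 10.8 CPM in BL6 and from 23.2 to 13.3 CPM in MRL, while that of Snrpb went from 62.6 to 58.5 and from 57.4 to 52.0. Snrpn shares 589 exonic bases on the same strand with the predicted gene Gm38393. In BL6 that gene fell from 4.47 ± 0.656 to 0.301 ± 0.118 CPM. In MRL it fell from 3.58 ± 0.651 to 1.06 ± 0.505 CPM (SD, n = 4 in both strains). Exons of Snrpn also overlap those of Snurf on the same strand, a gene that is not in the count table. How reads in the shared stretches were assigned is not given in the sources used here.

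The balance of the paralogues within a sample, which does not depend on library scaling, was taken as the difference of log2 CPM, Snrpn minus Snrpb. It was -0.87, -1.24, -1.21 and -1.10 in unoperated and -2.29, -2.10, -2.14 and -3.02 in operated BL6. In MRL it was -1.46, -1.21, -0.95 and -1.10 unoperated and -1.82, -1.69, -2.16 and -1.73 operated. Every operated sample lay under every unoperated sample of its strain. Operated minus unoperated, the mean difference was -1.28 in BL6 and -0.67 in MRL, each with a two-sided exact permutation p of 0.0286, which is the smallest that 4 against 4 samples allow and stayed 0.0286 after adjustment over the 4 ratio tests. Without replicate 3 of operated MRL the MRL value was -0.57 with an exact p of 0.0571, where 3 against 4 samples allow 0.0286.

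**Figure D2:**
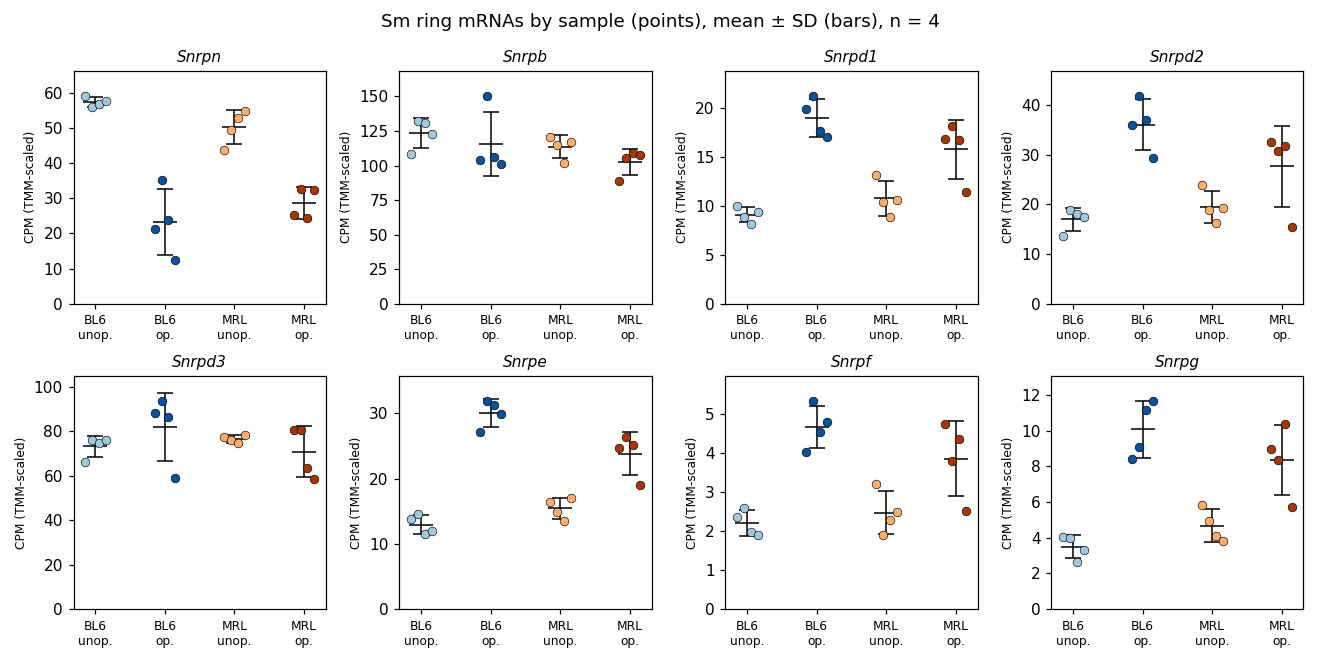
CPM (TMM-scaled) of snRNP protein mRNAs in each sample, with unoperated and operated BL6 in light and dark blue and unoperated and operated MRL in light and dark orange; bars are the mean and SD of 4 samples, and each panel's axis starts at 0. Snrpg and Snrpe are higher and Snrpn is lower in operated muscle, and the groups of Snrpb overlap.

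Among proteins particular to single snRNPs, U2-B″ (Snrpb2) was higher after surgery, with log2 fold changes of 0.36 in BL6 and 0.24 in MRL, and the MRL call was lost in 9 alternatives. U2-A′ (Snrpa1) held 13.2, 14.3, 15.1 and 15.3 CPM in unoperated and 21.1, 26.1, 16.4 and 17.8 CPM in operated BL6, groups that did not overlap, with a log2 fold change of 0.49 (SE 0.14, adjusted p = 0.00649 in edgeR's test). In MRL it held 22.3, 19.1, 19.4 and 22.4 CPM and 25.8, 23.8, 24.8 and 18.0 CPM, and its log2 fold change was 0.15 (adjusted p = 0.386). The U1 proteins U1-A (Snrpa) and U1-C (Snrpc) were not called, with -0.25 and 0.23 in BL6 and -0.21 and -0.07 in MRL.

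SF3a and SF3b together let the U2 snRNP hold the branch point. In BL6, Sf3b6 and Sf3b5 had the largest rises among the 8 members. Sf3b6, whose product p14 contacts the branch point adenosine, held 24.8, 23.3, 19.6 and 18.5 CPM in unoperated and 41.9, 39.6, 44.5 and 43.3 CPM in operated BL6. MRL values were 34.1, 30.7, 26.4 and 29.1 CPM and 47.7, 37.5, 39.4 and 33.1 CPM. The BL6 groups were far apart, and those of MRL overlapped through operated replicate 4. Sf3b6 rose by 0.97 (SE 0.12, adjusted p = 2.27e-05 in edgeR's test) in BL6 and by 0.39 (SE 0.12, adjusted p = 0.0182) in MRL, where the call was lost without unoperated replicate 3 (0.0579), without operated replicate 1 (0.0715) and with total counts (0.0576). Sf3b5 stood at 17, 24.7, 22.6 and 18.8 CPM in unoperated and at 26.4, 35.1, 35.3 and 34.7 CPM in operated BL6, a rise of 0.66 (SE 0.14, adjusted p = 0.000656). Its MRL levels of 23.6, 22.2, 16.8 and 21.3 CPM and 23.9, 26.1, 27.9 and 23.7 CPM gave 0.28 (adjusted p = 0.107), although the groups did not overlap.

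Sf3b1, the target of several splicing inhibitors, rose by 0.35 in BL6 and was not called in MRL, at 0.28 (adjusted p = 0.0221 and 0.0798). Its BL6 call was lost without unoperated replicate 1 (0.0531) or operated replicate 1 (0.0968), whose 265 CPM was the highest of any sample. Sf3a1, Sf3a3 and Sf3b3 were called in BL6, at 0.33, 0.32 and 0.29, and not in MRL, at 0.12, 0.08 and 0.21. Sf3a2 and Sf3b2 were not called in either strain, at 0.10 and -0.06 in BL6 and -0.21 and 0.09 in MRL.

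Of the SR proteins, Srsf9 (SRp30c) rose most. Its BL6 levels were 10.7, 10.2, 8.51 and 6.63 CPM unoperated and 20.7, 17.9, 24.4 and 29.6 CPM operated. Its MRL levels were 13.6, 10.8, 9.58 and 11.9 CPM and 20.1, 23.7, 24.5 and 16.5 CPM. All operated samples lay above all unoperated samples of the same strain. Surgery changed it by 1.36 (SE 0.19, adjusted p = 3.41e-05 in edgeR's test) in BL6 and 0.89 (SE 0.18, adjusted p = 0.00263) in MRL.

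Srsf3 (SRp20), a small SR protein that also serves mRNA export, held 40.6, 33.8, 28.3 and 30.3 CPM in unoperated and 58.8, 54.7, 55.3 and 52.6 CPM in operated BL6. MRL samples held 42.1, 37.2, 40.8 and 48.2 CPM and 59.1, 64.8, 60.7 and 52.1 CPM. The groups did not overlap in either strain, and the rise was 0.74 (SE 0.12, adjusted p = 8.97e-05 in edgeR's test) in BL6 and 0.49 (SE 0.12, adjusted p = 0.00459) in MRL. Srsf4 (SRp75) went from 29.9, 32.1, 34.9 and 30.0 CPM to 48.4, 47.3, 51.4 and 54.0 CPM in BL6, and from 31.7, 32.7, 30.4 and 31.4 CPM to 42.1, 41.0, 44.4 and 36.9 CPM in MRL. Here too no samples overlapped, and the log2 fold change was 0.66 (SE 0.08, adjusted p = 2.02e-05) in BL6 and 0.38 (SE 0.08, adjusted p = 0.00307) in MRL. Srsf7 and Srsf6 rose by 0.44 and 0.38 in BL6 and by 0.36 and 0.27 in MRL, and the MRL call of Srsf6 was lost in 10 alternatives.

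Srsf1, the founding SR protein, was not called in either strain, at -0.09 and 0.03. Srsf10 and Srsf11 were called in MRL, at 0.37 and 0.43, and not in BL6, at 0.15 and 0.27 (adjusted p = 0.319 and 0.0619). Srsf5 (SRp40) held 99.4, 112, 101 and 92.9 CPM in unoperated and 83.9, 86.5, 98.1 and 78.1 CPM in operated BL6, overlapping groups with a log2 fold change of -0.23 (SE 0.10, adjusted p = 0.0459 in edgeR's test). That call was lost in 11 of its 18 alternatives, among them leaving out unoperated replicate 1, 2 or 3 or operated replicate 1, 2 or 4 (adjusted p 0.0517, 0.143, 0.0783, 0.0957, 0.0633 and 0.102). In MRL, Srsf5 gave -0.05 (adjusted p = 0.662).

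Srsf2 (SC35), a core component of nuclear speckles, was called lower in MRL. It held 100.4, 95.8, 95.3 and 106 CPM in unoperated and 86.3, 87.5, 81.4 and 85.7 CPM in operated MRL, and 77.7, 88.4, 77.4 and 78.7 CPM and 83.9, 78.6, 85.2 and 75.3 CPM in BL6. The MRL groups did not overlap and the BL6 groups did. The log2 fold change was -0.22 (SE 0.08, adjusted p = 0.0379 in edgeR's test) in MRL and 0.00 (adjusted p = 0.973) in BL6. The MRL call was lost without any one of unoperated replicates 1, 2 and 4 and operated replicates 1, 2 and 3, at adjusted p of 0.0644, 0.0592, 0.102, 0.0669, 0.0568 and 0.1. Srsf2 shares exonic bases on the opposite strand with Mettl23 (460) and Mfsd11 (288), and whether counting used strand is not given in the sources used here, so reads there cannot be assigned to one gene.

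**Figure D3:**
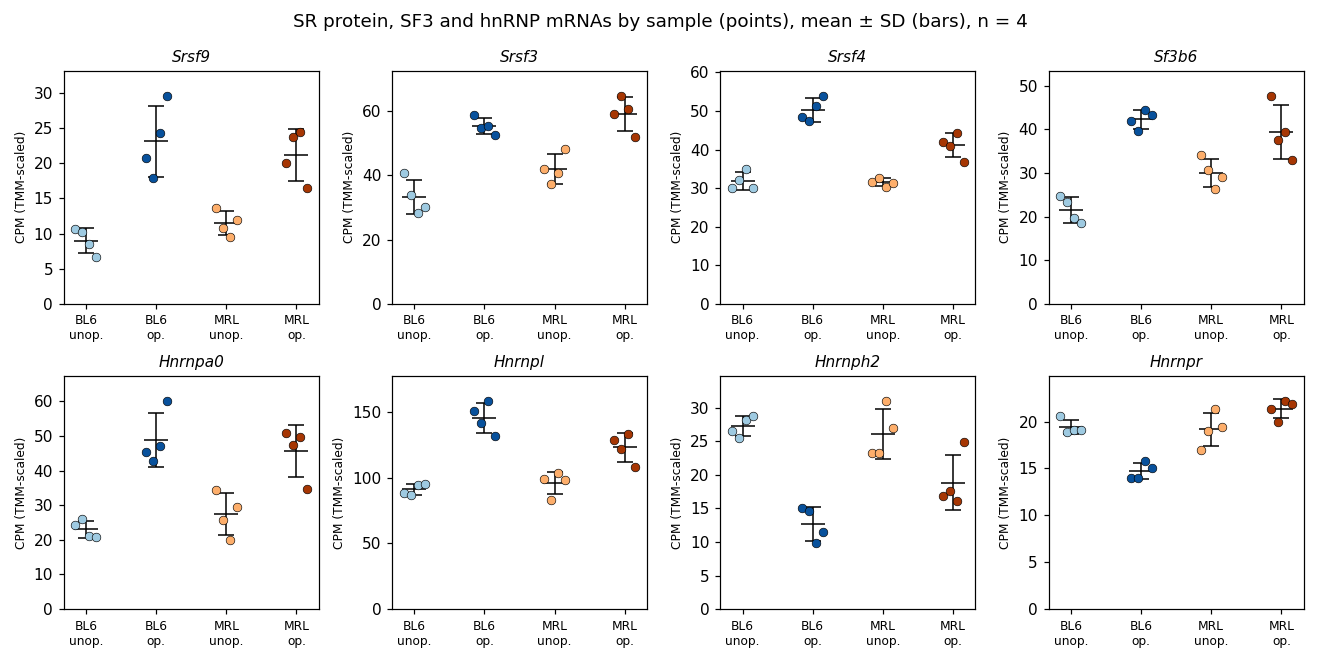
CPM (TMM-scaled) of 8 SR protein, SF3 and hnRNP mRNAs in each sample, with colours for the 4 groups as labelled on the axis; bars are the mean and SD of 4 samples, and every axis starts at 0. Srsf9, Srsf3, Srsf4, Sf3b6, Hnrnpa0 and Hnrnpl are higher and Hnrnph2 lower after surgery, and Hnrnpr is lower in operated BL6, at 14.0 to 15.8 CPM, than in any other sample.

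The hnRNPs moved in both directions. Hnrnpa0, an intronless relative of Hnrnpa1 that binds AU-rich elements, held 24.4, 25.9, 21.1 and 20.8 CPM in unoperated and 45.3, 42.9, 47.1 and 60.1 CPM in operated BL6. Its MRL values were 34.4, 25.8, 20.1 and 29.4 CPM and 51.0, 47.4, 49.8 and 34.7 CPM. No operated sample fell inside the unoperated range, although replicate 4 of operated MRL came within 1 CPM of it. The rise was 1.08 (SE 0.16, adjusted p = 7.15e-05 in edgeR's test) in BL6 and 0.74 (SE 0.16, adjusted p = 0.00365) in MRL. Hnrnpk, a poly(C)-binding hnRNP, rose by 0.34 and 0.33, and Hnrnpc, which forms the core of the hnRNP particle, by 0.29 and 0.25, with the MRL call of Hnrnpc lost in 7 alternatives.

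Hnrnpl, which binds CA repeats and has Hnrnpll as its paralogue, held 88.7, 86.9, 94.5 and 95.3 CPM in unoperated and 151, 142, 158 and 132 CPM in operated BL6. MRL samples held 99.0, 83.4, 103 and 98.3 CPM and 129, 122, 134 and 108 CPM. The groups were separate in both strains, with a log2 fold change of 0.67 (SE 0.10, adjusted p = 5.97e-05 in edgeR's test) in BL6 and 0.36 (SE 0.10, adjusted p = 0.0102) in MRL. Hnrnpll, known from alternative splicing in lymphocytes, stood at 19.6, 18.4, 21.2 and 23.2 CPM and 18.5, 20.5, 14.4 and 16.8 CPM in BL6, and at 19.4, 21, 24 and 23.4 CPM and 24, 23.4, 24.9 and 21.2 CPM in MRL. Those groups overlapped, and neither change was called, at -0.23 (adjusted p = 0.0796) and 0.09 (adjusted p = 0.531). Without replicate 2 of operated BL6, Hnrnpll was called lower in BL6, at -0.32 (adjusted p = 0.0228).

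The log2 ratio of Hnrnpll to Hnrnpl was -2.18, -2.23, -2.15 and -2.04 in unoperated and -3.02, -2.79, -3.46 and -2.97 in operated BL6. In MRL it was -2.35, -1.99, -2.10 and -2.07 and then -2.42, -2.38, -2.42 and -2.35. The operated samples lay lower in both strains, in MRL by a margin that was small beside the spread of the unoperated samples. The mean difference was -0.91 in BL6 and -0.27 in MRL, with a two-sided exact permutation p of 0.0286 each (adjusted 0.0286 over the 4 ratio tests). Leaving out any one of the 4 operated MRL samples gave -0.26, -0.27, -0.26 and -0.28 with an exact p of 0.0571 each, where 3 against 4 samples allow 0.0286.

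**Figure D4:**
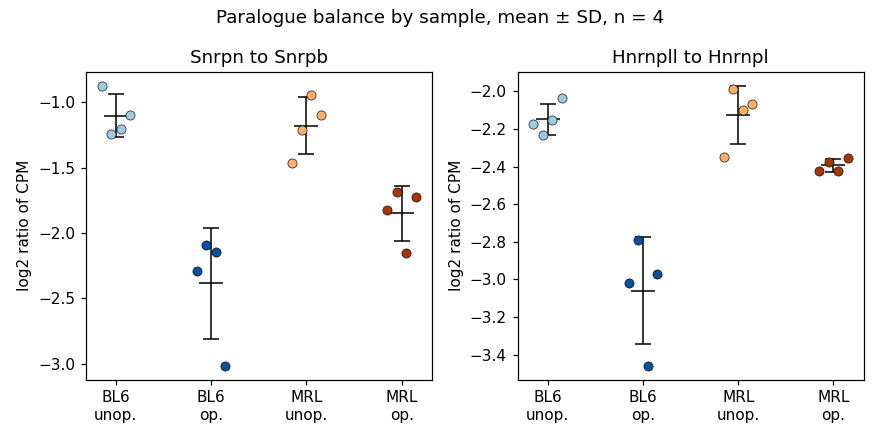
Log2 ratio of CPM of Snrpn to Snrpb (left) and of Hnrnpll to Hnrnpl (right) in each sample of the 4 groups; long horizontal bars are means and short ones the SD of 4 samples, and the vertical axes do not start at 0. On the right the operated BL6 samples lie lowest, from -3.46 to -2.79. On the left they run from -3.02 to -2.10, and operated MRL replicate 3, at -2.16, lies among them.

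Hnrnph2, an X-linked hnRNP that binds G-rich runs, held 26.5, 25.5, 28.2 and 28.8 CPM in unoperated and 15.1, 14.6, 9.81 and 11.5 CPM in operated BL6. In MRL it held 23.2, 23.3, 31.0 and 27.0 CPM and 16.8, 17.5, 16.2 and 25 CPM. The BL6 groups were separate, whereas replicate 4 of operated MRL lay within the unoperated range. On the log2 scale Hnrnph2 fell by 1.10 in the BL6 comparison (SE 0.16, adjusted p = 5.13e-05 in edgeR's test) and by 0.47 in MRL (SE 0.16, adjusted p = 0.0251). The MRL call was lost without replicate 3 or 4 of unoperated MRL (0.0916 and 0.0585), without replicate 1, 2 or 3 of operated MRL (0.0717, 0.061 and 0.0822) and with total counts (0.0699). Its autosomal relative Hnrnph1 was not called, at -0.22 in BL6 and 0.12 in MRL (adjusted p = 0.0674 and 0.335).

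Hnrnpa2b1, which carries RNA in granules as well as binding introns, was the most counted hnRNP. In BL6 it went from 480, 437, 475 and 519 CPM to 385, 448, 248 and 253 CPM, and in MRL from 407, 433, 462 and 472 CPM to 395, 436, 361 and 463 CPM. Operated BL6 replicates 3 and 4 were the lowest of all samples, and operated replicate 2 overlapped the unoperated range. The log2 fold change was -0.52 (SE 0.17, adjusted p = 0.0138 in edgeR's test) in BL6 and -0.10 (adjusted p = 0.646) in MRL. Hnrnpul1 went from 63.7, 65.9, 73.0 and 68.0 CPM to 50.5, 52.6, 50.4 and 58.9 CPM in BL6 (-0.35, SE 0.10, adjusted p = 0.0062). In MRL it went from 57.0, 63.3, 63.9 and 59.1 CPM to 47.6, 43.5, 52.0 and 59.7 CPM (-0.26, SE 0.10, adjusted p = 0.043). The Hnrnpul1 groups were separate in BL6 and overlapped in MRL through operated replicate 4. The BL6 call of Hnrnpul1 was lost with total counts, at -0.19 (adjusted p = 0.284), and the MRL call was lost in 9 of 18 alternatives, among them leaving out any one sample other than operated replicate 4 (adjusted p 0.0509 to 0.132).

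Hnrnpr, a relative of the mRNA-binding protein Syncrip, held 20.6, 18.8, 19.1 and 19.1 CPM in unoperated and 14.0, 14.0, 15.8 and 15 CPM in operated BL6. In MRL it held 17, 19, 21.4 and 19.4 CPM and 21.4, 19.9, 22.2 and 21.9 CPM. Operated BL6 lay under all other groups, and the MRL groups overlapped. The log2 fold change was -0.40 (SE 0.08, adjusted p = 0.000778 in edgeR's test) in BL6 and 0.15 (SE 0.08, adjusted p = 0.137) in MRL, and the BL6 call was lost with total counts, at -0.25 (adjusted p = 0.136). The hnRNPs Hnrnpa1, Hnrnpd, Hnrnpdl, Hnrnpm, Hnrnpu and Hnrnpul2 were not called in either strain, with values between -0.18 and 0.20. Hnrnpab, Hnrnpa3 and Hnrnpf were called higher in BL6 only, at 0.35, 0.33 and 0.28. The call of Hnrnpf was lost in 11 alternatives. Hnrnpa3 has 20 near-identical copies among annotated genes, none of them in the table, so the count of Hnrnpa3 is uncertain. Hnrnpf and Snrpa have 2 such copies each, and Hnrnpk, Srsf5 and Snrpe have 1 each, also outside the table. The same limit holds for their counts.

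**Figure D5:**
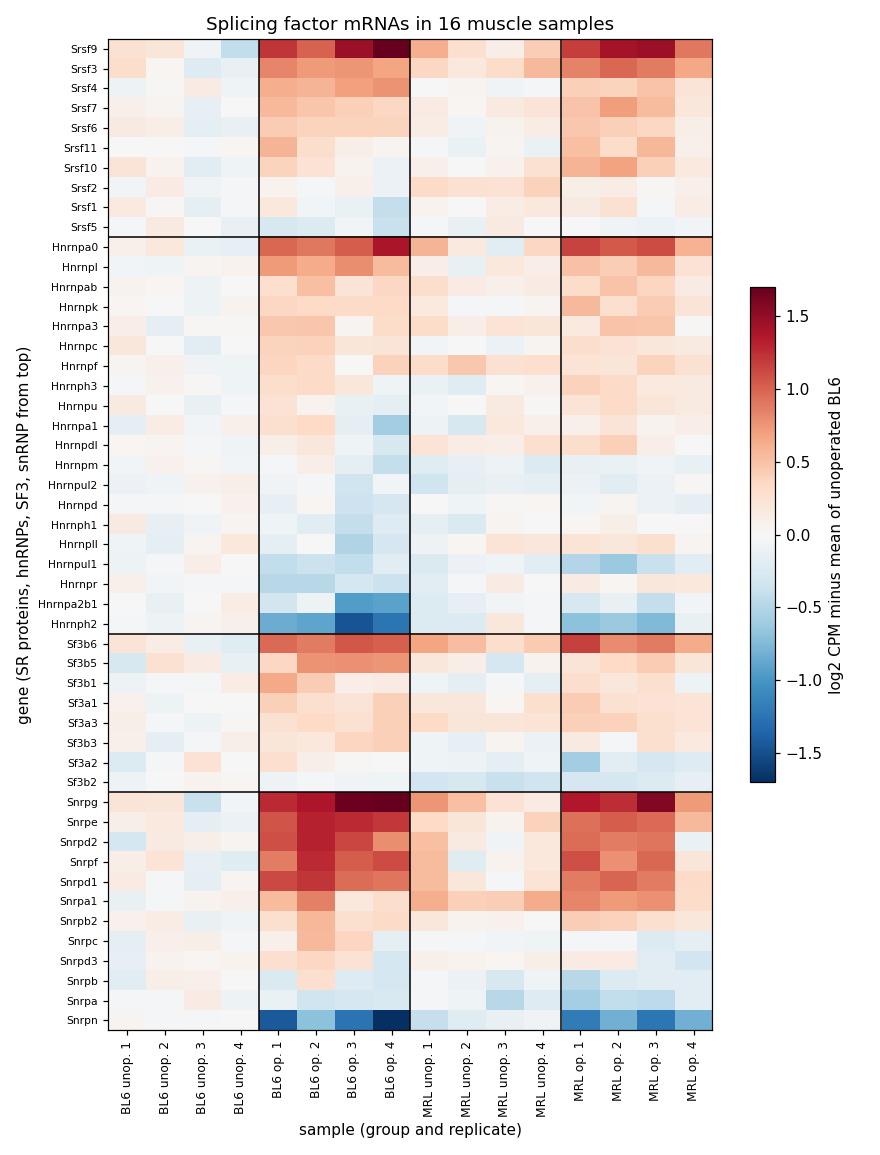
Level of each of the 50 members in each of the 16 samples, as log2 CPM minus the member's mean in unoperated BL6 (colour scale), with members in rows by family and samples in columns by group. The Sm genes Snrpg, Snrpe, Snrpd1, Snrpd2 and Snrpf are higher and Snrpn is lower in the operated columns, and replicate 4 of operated MRL is paler for the Sm genes than the other operated MRL samples.

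In unoperated muscle the strains differed in few members. MRL was higher for Snrpa1, Sf3b6 and Srsf2 and lower for Sf3b2, so that 4 of 50 members were called against a background of 10.4% (5.02% higher and 5.36% lower in MRL). The log2 fold changes, MRL over BL6, were 0.52 for Snrpa1 (SE 0.14, adjusted p = 0.0259 in edgeR's test), 0.48 for Sf3b6 (SE 0.12, adjusted p = 0.0185) and 0.30 for Srsf2 (SE 0.08, adjusted p = 0.0259), from the unoperated values given above, which did not overlap for any of these genes. Sf3b2, a subunit that anchors SF3b near the branch site, held 108, 114, 120 and 117 CPM in unoperated BL6 and 91.9, 94.8, 88.0 and 90.8 CPM in unoperated MRL. These groups were separate, and the log2 fold change was -0.33 (SE 0.08, adjusted p = 0.00986). The calls of Snrpa1, Sf3b6 and Srsf2 were each lost when any one of several samples was left out. In those fits their log2 fold changes stayed at 0.47 to 0.54, 0.41 to 0.44 and 0.27 to 0.29. The count of members called was 1 without replicate 3 of unoperated BL6 or without replicate 1 of unoperated MRL. It was 2 without replicate 4 of either group. These 4 fits called 7.01% to 7.73% of all genes. With total counts alone all 4 called members were higher in MRL, and Sf3b2 was not called, at -0.19 (adjusted p = 0.337). In that setting 9.01% of all genes were called, 742 higher and 313 lower in MRL.

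Among operated samples MRL was higher for Hnrnph2, Hnrnpr and Hnrnpll and lower for Sf3a2 and Srsf4, 5 of 50 members against a background of 12.9% (7.6% higher and 5.27% lower in MRL). The clearest was Hnrnpr, at 0.54 (SE 0.08, adjusted p = 0.000436 in edgeR's test), whose 4 operated MRL samples lay above the 4 operated BL6 samples. Hnrnph2 gave 0.57 (SE 0.16, adjusted p = 0.0266) and Hnrnpll 0.41 (SE 0.11, adjusted p = 0.0253), with no overlap for either. The Hnrnph2 call was lost in 7 of its 18 alternatives and that of Hnrnpll in 6. Without operated MRL replicate 4, its highest operated sample, Hnrnph2 gave 0.40 (adjusted p = 0.0887 in edgeR's test). Sf3a2 held 29.5, 25.8, 24.6 and 24.1 CPM in operated BL6 and 16, 21.4, 19.8 and 20.7 CPM in operated MRL, which gave -0.41 (SE 0.11, adjusted p = 0.0224). Those samples did not overlap, although 429 exonic bases of Sf3a2 are shared with Plekhj1 on the opposite strand. Srsf4 gave -0.29 (SE 0.08, adjusted p = 0.0272), again without overlap. The Srsf4 call was lost in 8 of its 18 alternatives and that of Sf3a2 in 4. With total counts alone Srsf4 gave -0.25 (adjusted p = 0.282 in edgeR's test), and its false discovery rate in the authors' deposited table was 0.0511. The count was 2 without replicate 3 of operated BL6 and 3 without replicate 1, 2 or 4 of operated MRL, with 8.8% to 10.8% of all genes called. With total counts 4 members were called, all higher in MRL, with 11.8% of all genes called (994 higher and 383 lower).

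The difference between the strains in the response to surgery was tested as an interaction, and no member passed it. In edgeR's test 0 of 50 members were called against a background of 0.248% (0.154% positive and 0.0939% negative), with 10 at an unadjusted p under 0.05, and voom called 0, with 11 at an unadjusted p under 0.05. The lowest adjusted p in edgeR's test was that of Hnrnpr, 0.0705, with an interaction of 0.55 (SE 0.12, the MRL effect minus the BL6 effect). DESeq2 called 2 members, Hnrnpr at 0.54 (adjusted p = 0.00386) and Snrpe at -0.60 (adjusted p = 0.0438), with 12 at an unadjusted p under 0.05, where it called 2.14% of all genes. The median interaction of the 50 members was -0.08, against -0.01 for all genes. For Snrpg, Snrpe, Snrpd1 and Snrpd2 the interaction was -0.69 (SE 0.28), -0.59 (SE 0.16), -0.51 (SE 0.21) and -0.58 (SE 0.28), with adjusted p of 0.267, 0.137, 0.267 and 0.322. Replicate 4 of operated MRL was the lowest operated MRL sample for each of these genes.

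Other genes of the splicing machinery moved in both directions. Of 34 tested further core spliceosome genes, 9 rose and 12 fell in BL6, and 5 rose and 5 fell in MRL. Over all genes 35.1% were called higher and 32.8% lower in BL6, and 22.3% and 22.7% in MRL. The same background holds for the other lists that follow. Prpf4 of the U4/U6 snRNP fell from 38.0 ± 3.16 to 19.8 ± 2.87 CPM in BL6 and from 34.0 ± 4.12 to 22.2 ± 4.88 CPM in MRL (SD, n = 4; -0.94 and -0.61 on the log2 scale). Prpf8, the large protein at the heart of the spliceosome, fell by 0.93 and 0.46, and the ubiquitin ligase Prpf19 by 0.60 and 0.53. Of 13 tested genes of snRNP assembly and transport, 3 rose and 5 fell in BL6 and 0 rose and 2 fell in MRL. The Sm methyltransferase Prmt5 was among those that fell, by 0.68 (58.2 ± 3.26 to 36.3 ± 6.29 CPM) and 0.40 (41.4 ± 1.73 to 31.4 ± 5.87 CPM). Strap, of the same assembly system, fell by 0.65 and 0.34. Gemin5, which recognises the RNA, fell by 0.67 in BL6 and gave -0.08 in MRL (adjusted p = 0.595 in edgeR's test).

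Genes that act on SR proteins or resemble them included 10 that rose and 6 that fell of 20 in BL6 and 7 and 3 in MRL. Clk1, a kinase of SR proteins, rose from 50.3 ± 10.2 to 116 ± 9.76 CPM in BL6 and from 57.8 ± 9.74 to 99.1 ± 19.2 CPM in MRL (SD, n = 4; 1.21 and 0.78 on the log2 scale). Tra2a, an SR-like splicing activator, rose by 0.97 and 0.76. Of 15 tested regulators known for muscle splicing, 3 rose and 9 fell in BL6 and 3 rose and 4 fell in MRL. Rbfox1, which binds GCAUG beside muscle exons, fell from 218 ± 21.8 to 64.8 ± 27.0 CPM in BL6 and from 196 ± 24.8 to 85.0 ± 23.5 CPM in MRL (-1.75 and -1.20). Of the polypyrimidine tract-binding genes, Ptbp1 rose by 1.15 and 0.80 and Ptbp3 by 0.77 and 0.95, and Ptbp2 was not called, at -0.11 and 0.11.

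Of 18 RNA-binding genes akin to the hnRNPs, 5 rose and 5 fell in BL6, and 2 rose and 1 fell in MRL. Pcbp3, a poly(C)-binding protein, rose by 0.99 and 0.74, and Khsrp, which binds AU-rich elements, fell by 0.34 and 0.29. Matr3, a nuclear matrix protein that binds RNA, fell from 75.8 ± 4.51 to 48.8 ± 3.45 CPM in BL6 (-0.64) and stood at 72.4 ± 3.80 and 78.9 ± 4.19 CPM in MRL (0.12, adjusted p = 0.234 in edgeR's test; SD, n = 4). It was the 1 gene of these 5 lists called in the interaction, at an adjusted p of 0.0311.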

How the data were processed

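Bulk RNA sequencing of 16 muscle samples in 4 groups of 4 was analysed, with groups and replicate numbers from the sample titles. The authors deposited whole-number counts per gene, unnormalized by their values; per the submitters' processing notes FastQC, STAR, edgeR and the mm10 build were used, and the counting program and strand setting are not given in the sources used here. The authors also deposited a table of log2 fold changes with a p-value and false discovery rate per gene for the same comparisons of groups. The lowest mean level of a gene in the count table was 1.05 CPM.

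Counts were analysed in R 4.3.3 with edgeR 4.0.16: filterByExpr (minimum count 10), TMM factors, and 1 quasi-likelihood fit with 1 mean per group. CPM use TMM-scaled library sizes, and log2 CPM a prior count of 2. Adjusted p-values from edgeR, limma 3.58.1 (voom) and DESeq2 1.42.0 are Benjamini-Hochberg values over all genes. The scripts were tested on simulated data. Paralogue ratios were tested by two-sided exact permutation. No replicates agreed within sampling noise (lowest chi-square per degree of freedom 14.8), so all were kept. Near-identical copies (at least 95% identity over 50% of a transcript) were sought with BLAST 2.17.0 among GENCODE M21 transcripts (GRCm38) alone. Copies outside annotated transcripts were not searched for. Exons of 11 members overlap those of another gene of the table, among them Hnrnpm with March2 (1169 bases) and Hnrnpab with Phykpl (809 bases). Reads in such stretches may have been lost or shared in counting. Of 11710 gene IDs, 11708 were in the GENCODE M21 annotation.

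The members and lists were chosen with earlier results of these data known. Sample values are given for the 2 called members with the largest rise and fall per family and surgery comparison, the 2 largest per direction in each strain comparison, members called in the interaction, and both paralogue pairs. From the other lists the 2 called genes of largest change per surgery comparison are named. Other scalings, no filter, DESeq2, voom, a replicate block, fits of single comparisons and leaving out samples were tried.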

Additional observations from a re-analysis of the deposited data

Results flagged for a closer look

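For the 22 members with sample values, each of the 88 sets of 4 samples was examined for 1 sample far from the other 3 by Dixon's ratio (above 0.829). This picked out 5 sets, and chance gives about 1 in 20. Hnrnph2 in operated MRL was at 25 CPM in replicate 4 and at 16.2 to 17.5 CPM in the others. Sf3b5 in operated BL6 was at 26.4 CPM in replicate 1 and at 34.7 to 35.3 CPM in the others. Srsf2 in unoperated BL6 was at 88.4 CPM in replicate 2, against 77.4 to 78.7 CPM. Hnrnpr in unoperated BL6 was at 20.6 CPM in replicate 1, against 18.8 to 19.1 CPM. Snrpb in operated BL6 was at 151 CPM in replicate 2, against 101 to 106 CPM.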

How the results depend on the processing

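Of the 62 calls of single members, 37 held in every alternative run, 25 were lost in at least 1, and none changed sign. The uncalled Snrpb in BL6 turned to 0.0166 with total counts. Unoperated strain calls numbered 7 with DESeq2 (14.2% of all genes). They numbered 1 without replicate 4 of operated BL6 and replicate 1 of unoperated MRL (9.67%), a setting chosen after seeing the data. Operated strain calls numbered 1 with the groups of the comparison alone (4.91% of all genes), and DESeq2 called 2 interactions (2.14%). Leaving out 1 sample gave 28 to 33 members for surgery in BL6 (61.4% to 69.8% of all genes) and 12 to 25 in MRL (29.8% to 52.5%). It gave 1 to 4 for strain unoperated (7.01% to 9.41%), 2 to 7 operated (8.8% to 15.7%) and 0 to 0 for the interaction. The ratio of Snrpn to Snrpb ran from -1.38 to -1.07 in BL6 and -0.76 to -0.57 in MRL. That of Hnrnpll to Hnrnpl ran from -1.0 to -0.78 and -0.34 to -0.22. The cause of these moves was not tested, beyond the smaller number of samples.

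Shared replicate numbers come from titles alone. Same-numbered samples correlated at -0.47 to 0.45 in their deviations, and 11 of 32 correlated best with their own number, so the numbers were not taken as pairs. With a replicate block the members called were 29, 22, 4, 3 and 0 in the order above. Of all genes 67.7%, 44.4%, 9.79%, 11.6% and 0.0171% were called there. The ratios kept their values (-1.28, -0.67, -0.91 and -0.27) with an exact p of 0.125, the smallest that 4 pairs allow. Depth limits Snrpf and Hnrnpf most, the members with the lowest mean CPM.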
